A study of Homo sapiens with 2 samples.

Results

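Counts of 10 genes of the adherens junction were followed through a pair of RNA libraries from 1 human cell line: the cadherin genes CDH1, CDH2, CDH3, CDH4 and CDH13, the catenin genes CTNNA1, CTNNB1, CTNND1 and JUP, and the vinculin gene VCL. They were chosen by symbol, through the Ensembl identifiers of GENCODE release 44, and all 10 were found among the 58735 genes of both count tables. MCF10a is a non-tumorigenic line of mammary epithelial cells, and the derivative used here stably carries the repressor Snail fused to the estrogen receptor. Tamoxifen, a ligand of that receptor, had been given at 100 nM over 1 day, which initiates an epithelial-to-mesenchymal transition, per the treatment protocol that the labels give for both libraries. Both also share the culture medium, with horse serum, EGF, hydrocortisone, cholera toxin and insulin. One library was read on a Nanopore MinION with a direct RNA kit, which threads unamplified poly(A) RNA molecules through pores from their 3′ ends. The other was prepared with the Illumina TruSeq stranded mRNA kit, which breaks RNA into pieces before copying it to cDNA. There was 1 library per platform and neither untreated nor parental cells were analysed here, so the values describe a cadherin balance after induction and not a change in it. The difference between the libraries has no replicate check, and each interval and test covers counting error only.

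Classical cadherins join neighbouring cells through calcium-dependent binding of their extracellular domains. Their cytoplasmic tails bind p120-catenin (CTNND1) near the membrane and beta-catenin (CTNNB1) or plakoglobin (JUP) further along, and alpha-catenin (CTNNA1) and vinculin (VCL) connect that complex to actin. Breast epithelium is known for E-cadherin (CDH1) in luminal cells and P-cadherin (CDH3) in basal or myoepithelial cells, whereas N-cadherin (CDH2) is typical of neural and mesenchymal cells. A shift from E- to N-cadherin is a classic sign of the transition that Snail starts, and Snail binds E-boxes of the letters CACCTG or CAGGTG. CDH4 encodes R-cadherin, a close relative of N-cadherin. CDH13 encodes T-cadherin, which is held in the membrane by a lipid anchor, lacks the catenin-binding tail and so is not a classical cadherin.

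Because the line was switched on through an E-box-binding repressor, the 250 bases before annotated transcription starts were read for E-boxes, from the RefSeq promoter table (GRCh38.p14). It held 12 starts for 6 of the 10 genes, and CDH1, CDH3, CDH13 and CTNND1 had no entry. The motifs searched were CACCTG and its reverse complement CAGGTG, and the general E-box CANNTG, which reads the same form on both strands and includes the other motif. The sequences below are those of N- and R-cadherin, the members whose upstream stretches held no annotated exon, with every CANNTG match in capitals. The first is the main start of CDH2 (chr18:28177131-28177380, minus strand), the second an internal start of CDH2 (chr18:28036642-28036891, minus strand) and the third 1 of 2 internal starts of CDH4 (chr20:61499171-61499420, plus strand).
CDH2 main start: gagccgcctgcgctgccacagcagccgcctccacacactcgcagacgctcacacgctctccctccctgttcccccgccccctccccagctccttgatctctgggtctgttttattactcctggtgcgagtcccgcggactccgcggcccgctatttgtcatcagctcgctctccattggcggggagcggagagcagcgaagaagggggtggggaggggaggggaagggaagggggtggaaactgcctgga
CDH2 internal start: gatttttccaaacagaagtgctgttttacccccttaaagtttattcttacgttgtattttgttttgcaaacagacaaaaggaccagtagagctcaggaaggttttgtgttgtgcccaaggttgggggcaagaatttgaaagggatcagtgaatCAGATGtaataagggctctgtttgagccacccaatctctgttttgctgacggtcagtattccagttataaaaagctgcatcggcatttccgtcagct
CDH4 internal start: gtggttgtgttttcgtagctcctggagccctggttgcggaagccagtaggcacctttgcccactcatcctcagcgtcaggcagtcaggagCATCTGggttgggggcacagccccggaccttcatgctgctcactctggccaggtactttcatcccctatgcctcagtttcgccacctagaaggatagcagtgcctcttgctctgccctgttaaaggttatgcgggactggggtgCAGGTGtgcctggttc
No CANNTG match lay in the main CDH2 window. The internal CDH2 start had CAGATG, beginning 97 bases before the start, and the CDH4 start printed had CATCTG at 160 and CAGGTG at 16 bases before it. The other CDH4 start in the table (window chr20:61599511-61599760, plus strand, not printed) had CATCTG at 50 bases before it. Of the other members in the table, 1 of 2 starts of JUP held CACCTG at 54 and CAGGTG at 43 bases before it, and the windows of CTNNA1, CTNNB1 and VCL held neither. Thus 2 of the 12 windows held CACCTG or CAGGTG, as did 17.5% of all 35116 windows, and 6 of 12 held CANNTG, as did 61.8% of all. These are matches of letters, with no binding measured here.

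The Nanopore library summed to 403235 counts and the Illumina library to 191741714, so 1 Nanopore count amounted to 2.48 counts per 1000000 (CPM) and the 3 counts taken as the detection floor for 7.44 CPM. In the marker lists a gene was taken as present from 1 count. All 7 basal mammary markers and all 6 luminal or general epithelial markers were present in both libraries. The basal keratin KRT5 had 680 Nanopore and 277508 Illumina counts, and the basal marker TP63 had 5 and 6368. Among the luminal or general markers the keratin KRT8 had 157 and 40083 counts, KRT18 had 113 and 61710, and MUC1 had 10 and 5693. Near, at or under the Nanopore floor stood GATA3 (4 and 2479), EPCAM (3 and 770) and KRT19 (1 and 88). Of 5 mesenchymal markers Nanopore held 4, and vimentin (VIM) had 700 and 350409 counts, more than KRT5. The rest of that list was far lower, with 22 and 50517 counts for FN1 and 11 and 2576 for TWIST1. ZEB1 had 2 and 766 counts and ZEB2 had 0 and 1496. Of 5 fibroblast markers Nanopore held 2, COL1A2 with 1 count and DCN with 10. Illumina held all 5, with 5075 counts for DCN, 946 for COL1A1, 236 for LUM, 148 for COL1A2 and 27 for PDGFRB. The 3 endothelial markers summed to 0 and 990 counts, of which PECAM1 had 973 and the cadherin CDH5 had 11. The 3 blood markers summed to 13 and 8645 counts, all but 2 of them from CD68, with 0 and 2 for the leukocyte marker PTPRC. The part of other cell types in the members' values was not tested. SNAI1, which the construct carries, had 286 and 164973 counts, or 709 and 860 CPM. The estrogen receptor gene ESR1 had 389 and 27469 counts, or 965 and 143 CPM, and so differed the other way. The counts do not separate the construct from the endogenous genes, and the cause of that contrast was not tested.

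All 10 genes had at least 1 Nanopore count. Together they held 230 Nanopore counts, 0.0570% of that library (95% exact interval 0.0499 to 0.0649%), and 291027 Illumina counts, 0.152% of the other (0.151 to 0.152%). By reads they ran from 1 (CDH4) to 88 (CTNNA1) in the Nanopore library and from 429 (CDH4) to 132138 (CTNNA1) in the Illumina library. The same genes stood at both ends of the order.

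**Figure D1:**
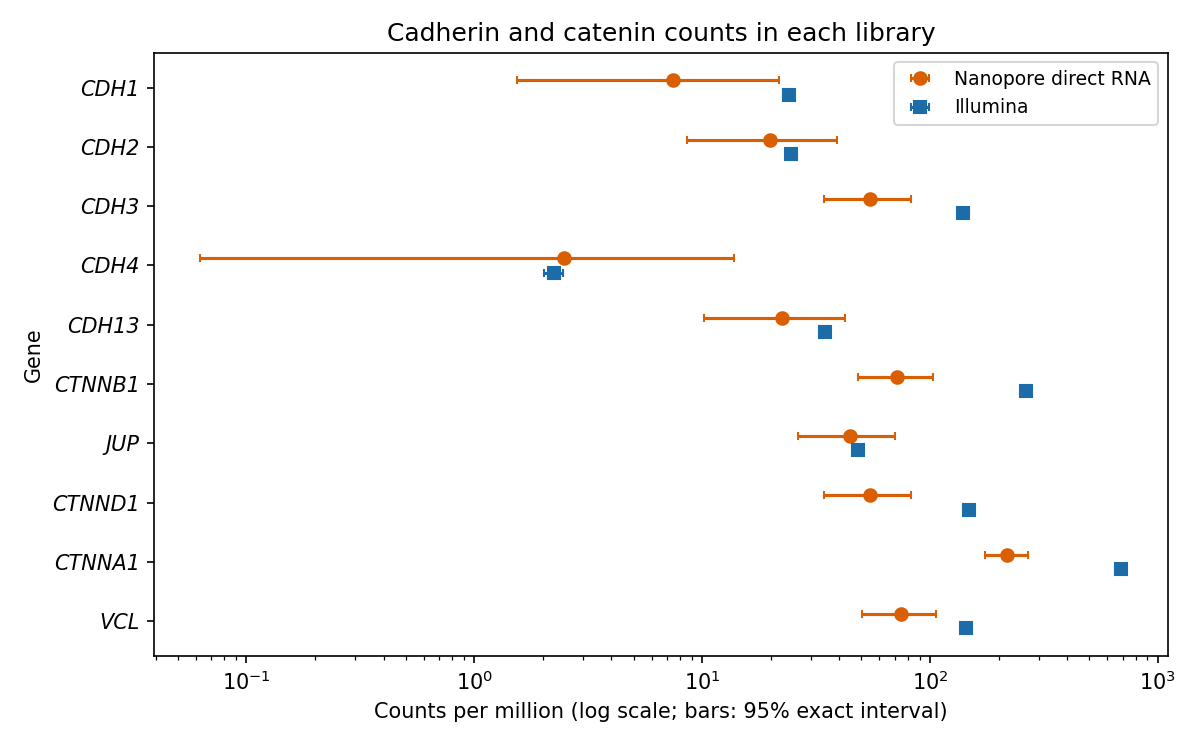
CPM (log axis) of the 10 genes in the Nanopore (circles) and Illumina (squares) libraries, with 95% exact intervals for counting error. Nanopore intervals are wide, from 0.0628 to 13.8 CPM for CDH4 and from 175 to 269 CPM for CTNNA1, and 6 of the 10 lie wholly below the Illumina value.

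Among the cadherins, P-cadherin was the most abundant in Nanopore reads and in Illumina counts per length. CDH3 (ENSG00000062038, chromosome 16, 68636189 to 68727468, plus strand, GENCODE v44 on hg38) had 22 Nanopore counts, or 54.6 CPM (95% exact interval 34.2 to 82.6), and 26801 Illumina counts, or 139.8 CPM (138.1 to 141.5). E-cadherin, CDH1 (ENSG00000039068), lies next to it on the same strand (68737292 to 68835537). CDH1 had 3 Nanopore counts, 7.44 CPM (1.53 to 21.7), which is the floor of that depth, and 4634 Illumina counts, 24.2 CPM (23.5 to 24.9). N-cadherin, CDH2 (ENSG00000170558, chromosome 18, 27932879 to 28177946, minus strand), had 8 Nanopore counts, 19.8 CPM (8.57 to 39.1), and 4730 Illumina counts, 24.7 CPM (24.0 to 25.4). Thus CDH3 stood above CDH1 and CDH2 in each library, and the Nanopore interval of CDH2 overlapped those of both CDH1 and CDH3.

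T-cadherin stood near N-cadherin in Nanopore reads and in Illumina TPM by union exonic length (8.50 against 7.78). By canonical transcript length CDH13 had a TPM of 6.81 against 9.52 for CDH2, and by mean transcript length 26.0 against 10.8, so the closeness in Illumina depended on the length. CDH13 (ENSG00000140945, chromosome 16, 82626965 to 83800640) had 9 Nanopore counts, 22.3 CPM (10.2 to 42.4), and 6633 Illumina counts, 34.6 CPM (33.8 to 35.4). R-cadherin was rare, with 1 Nanopore count for CDH4 (ENSG00000179242, chromosome 20, 61252261 to 61940617), 2.48 CPM (0.0628 to 13.8), and 429 Illumina counts, 2.24 CPM (2.03 to 2.46). At 1 read the Nanopore/Illumina CPM ratio of CDH4 was 1.11, with a counting interval of 0.0280 to 6.21 that leaves its direction unmeasured.

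Shares of E-, N- and P-cadherin in their sum put the balance on 1 scale. A direct RNA read stands for 1 molecule and was not divided by length, while for Illumina each count was divided by the gene's union exonic length and the values scaled to sum to 1000000 (TPM). Of the 33 Nanopore reads of the 3 genes, CDH3 held 66.7% (95% exact interval 48.2 to 82.0%), CDH2 24.2% (11.1 to 42.3%) and CDH1 9.09% (1.92 to 24.3%). In Illumina TPM the levels were 59.2 for CDH3, 10.8 for CDH1 and 7.78 for CDH2, or 76.1, 13.9 and 10.0% of the sum. P-cadherin had the largest share under every scale in both libraries. The CDH3 share ranged from 73.8 to 80.9% over the Illumina scales.

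**Figure D2:**
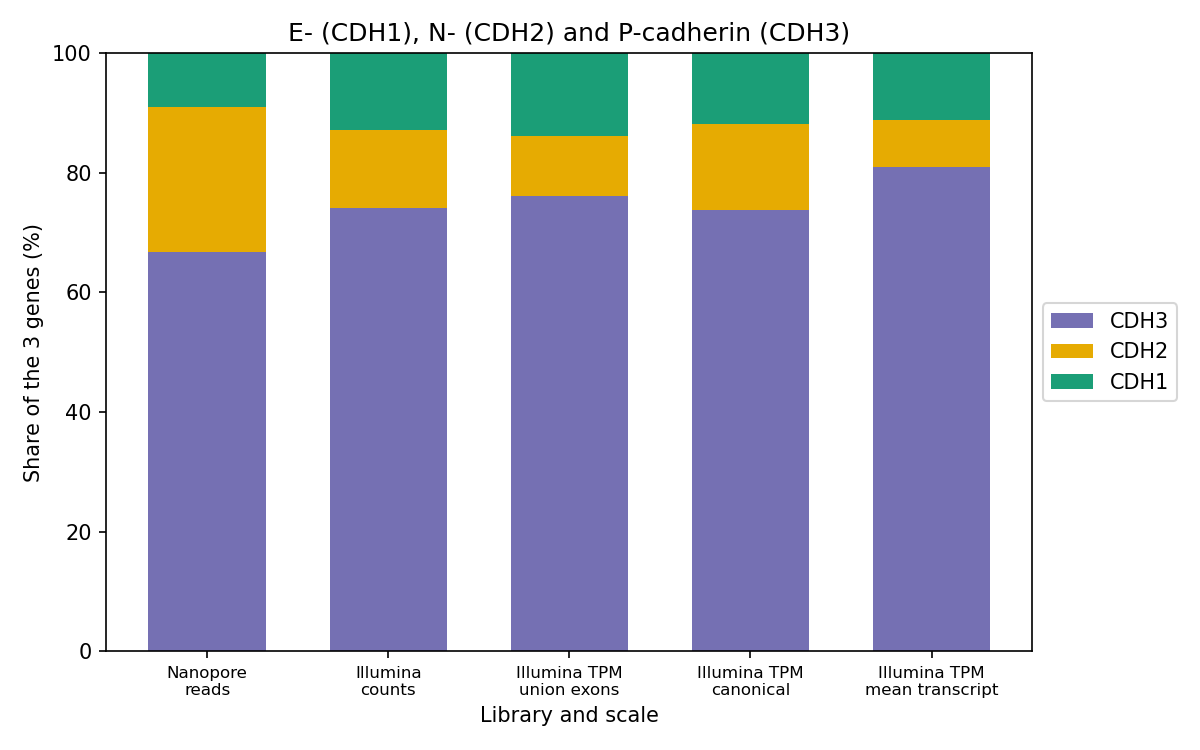
Share (%) of CDH3, CDH2 and CDH1 in the sum of the 3 genes, for Nanopore reads, Illumina counts and Illumina TPM by 3 definitions of gene length; each bar is 1 library on 1 scale. CDH3 makes up 66.7% of the Nanopore reads and 73.8 to 80.9% of the Illumina bars, and CDH1 and CDH2 exchange places between bars.

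Which of E- and N-cadherin was higher depended on the scale. In Nanopore reads CDH2 was 2.67 times CDH1, with an interval of 0.640 to 15.6 that includes 1. By Illumina TPM the ratio of CDH2 to CDH1 was 0.723 with union exonic length, 1.22 with the length of the Ensembl canonical transcript and 0.704 with mean transcript length. The Nanopore reads were thus too few to order these 2 genes, and their Illumina order depended on the choice of length. CDH3 was 7.33 times CDH1 in Nanopore reads (2.20 to 38.3) and 5.50 times in Illumina TPM by union exonic length. CDH3 was 2.75 times CDH2 in Nanopore reads (1.18 to 7.14), and 7.61, 5.11 or 10.3 times in TPM by union, canonical or mean transcript length, of which 5.11 lies inside the Nanopore interval. Fisher's exact test (two-sided) on the counts of each of the 3 pairs, without division by length, gave odds ratios of Nanopore over Illumina of 0.383 (0.0654 to 1.60) for CDH1 against CDH2, 0.789 (0.151 to 2.63) for CDH1 against CDH3 and 2.06 (0.793 to 4.81) for CDH2 against CDH3. The exact p-values adjusted by the Benjamini-Hochberg method over the 3 pairs were 0.340, 1 and 0.340. With 3, 8 and 22 reads the intervals allow several-fold differences in balance, so the libraries are not shown to give the same one.

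The catenins that bind the cadherin tail had higher values than E- and N-cadherin in Nanopore reads and in Illumina TPM. The Nanopore CPM interval of CDH2 (8.57 to 39.1) nevertheless overlapped those of JUP and CTNND1 (34.2 to 82.6). Beta-catenin, which also carries Wnt signals to the nucleus, is encoded by CTNNB1 (ENSG00000168036, chromosome 3, 41194741 to 41260096, plus strand). It had 29 Nanopore counts, 71.9 CPM (48.2 to 103), and 50474 Illumina counts, 263.2 CPM (260.9 to 265.5). Plakoglobin, its relative that also serves desmosomes, is encoded by JUP (ENSG00000173801, chromosome 17, 41754604 to 41786931, minus strand). JUP had 18 Nanopore counts, 44.6 CPM (26.5 to 70.5), and 9240 Illumina counts, 48.2 CPM (47.2 to 49.2). In both libraries beta-catenin had the higher count of the pair, before any account of length.

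In molecules, JUP was 0.621 times CTNNB1 by Nanopore reads, with an interval of 0.325 to 1.16. By Illumina TPM the ratio was 0.436 with union exonic length and 0.373 with mean transcript length, both inside that interval, and 0.191 with canonical transcript length, below it. The annotation gives CTNNB1 a union exonic length of 11759 bases over 56 transcripts and a canonical transcript of 3661 bases, so its TPM was 60.6 or 111 by these lengths. CDH1 to CDH4, the cadherins with a catenin-binding tail, summed to 34 Nanopore reads against 47 for CTNNB1 and JUP, a ratio of 0.723 (0.451 to 1.15). The same ratio by Illumina TPM was 0.903, 0.501 and 0.901 with union, canonical and mean transcript length. All of these lie inside the Nanopore interval.

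CTNND1, whose product p120-catenin holds cadherins at the cell surface (ENSG00000198561, chromosome 11, 57753243 to 57819546, plus strand), had 22 Nanopore counts, 54.6 CPM (34.2 to 82.6), and 28317 Illumina counts, 147.7 CPM (146.0 to 149.4). In Nanopore reads it was 0.647 times the sum of CDH1 to CDH4 (0.361 to 1.14). By Illumina TPM the ratio was 0.335, 0.516 and 0.256 with union, canonical and mean transcript length, and only the canonical value lies inside that interval.

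Alpha-catenin was the most abundant of the 10 genes in Nanopore reads and in Illumina TPM by each length. CTNNA1 (ENSG00000044115, chromosome 5, 138610967 to 138935034, plus strand) had 88 Nanopore counts, 218 CPM (175 to 269), and 132138 Illumina counts, 689.1 CPM (685.4 to 692.9), which placed it 647th and 195th among all genes of the 2 libraries. VCL (ENSG00000035403, chromosome 10, 73995193 to 74121363, plus strand), whose product vinculin is recruited to alpha-catenin under tension and also sits in focal adhesions, had 30 Nanopore counts, 74.4 CPM (50.2 to 106), and 27631 Illumina counts, 144.1 CPM (142.4 to 145.8). In Nanopore reads CTNNA1 was 2.93 times VCL (1.92 to 4.60) and 3.03 times CTNNB1 (1.97 to 4.79). By Illumina TPM, CTNNA1 was 5.41 times VCL with union exonic length, 7.00 times with canonical and 18.1 times with mean transcript length, all above the Nanopore interval. Against CTNNB1 it was 3.49, 2.55 and 7.92 times by the same lengths, of which the last lies outside. Its 44 annotated transcripts average 938 bases against 3754 for the canonical one, and the TPM of CTNNA1 accordingly ran from 211 to 881.

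In the order of Nanopore reads, CTNNA1 was followed by VCL, CTNNB1, CDH3 and CTNND1 (equal), JUP, CDH13, CDH2, CDH1 and CDH4. Of the 9 neighbours in that order only CTNNA1 and VCL differed beyond counting error, CTNNA1 holding 74.6% of their joint reads (95% exact interval 65.7 to 82.1%). In each of the other 8 pairs the interval included an equal split. The Illumina order by TPM (union exonic length) was CTNNA1, CTNNB1, CDH3, VCL, JUP, CTNND1, CDH1, CDH13, CDH2 and CDH4. Of the 45 pairs of genes, 39 stood in the same order in Nanopore reads and Illumina TPM.

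Between the libraries, the 9 members whose CPM averaged 5 or more all had a lower CPM in the Nanopore library than in the Illumina library, although JUP changed sign under median-ratio scaling. Once Illumina counts were divided by length, 7 of the 9 were above 0 by union exonic, 6 by canonical and 4 by mean transcript length. Each gene's Nanopore count was tested against its count in both libraries with a two-sided exact binomial test at the share set by the library totals, and p-values were adjusted by Benjamini-Hochberg over the 12414 genes tested. It compares these 2 libraries and not the platforms in general. Ratios were taken on the log2(CPM + 1) scale, Nanopore minus Illumina, where differences of low genes come out too small. Of the 9, 0 passed both an adjusted p under 0.05 and a 4-fold ratio, against 20.2% of all genes tested. That 20.2% covers both directions, and 12.9% of all genes tested were called higher by Nanopore. It is thus not a like share for 9 genes that were all lower by Nanopore. At the adjusted p alone, 5 of 9 were higher by Illumina, against 27.2% of all genes tested, and 0 were higher by Nanopore, against 20.2%. The median log2 ratio of the 9 was −1.34, against −0.42 for all genes tested, and the values ran from −1.86 to −0.11.

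The 5 genes past the threshold on the CPM scale were CTNNB1, CTNNA1, CTNND1, CDH3 and VCL. Beta-catenin had the lowest log2 ratio, −1.86 (CPM ratio 0.273, interval 0.183 to 0.392; exact binomial adjusted p = 1.81e-17). CTNNA1 followed at −1.65 (0.317, 0.254 to 0.390; exact adjusted p = 1.09e-38). CTNND1 was at −1.42 and CDH3 at −1.34, with exact binomial adjusted p-values of 2.65e-07 and 1.77e-06. With the counts of the readthrough gene that overlaps it, CTNND1 moved to −0.54 (exact binomial adjusted p = 0.0267). How reads over both genes were counted is not given, so this sum may hold the same reads under both. The test does not allow for that. VCL was at −0.94, with an exact binomial adjusted p of 0.000292.

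The other 4 tested genes missed the threshold. CDH1 had a log2 ratio of −1.58, between those of CTNNA1 and CTNND1, but with 3 reads its CPM ratio of 0.308 had an interval of 0.0635 to 0.900 and its exact binomial adjusted p was 0.0525. For CDH2 the log2 ratio was −0.30 (CPM ratio 0.804, 0.347 to 1.59), for CDH13 −0.61 (0.645, 0.295 to 1.23) and for JUP −0.11 (0.926, 0.549 to 1.46). The interval of JUP, the narrowest of these, reached well to both sides of 1.

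All 9 tested genes are long, between 4942 and 15212 bases of union exonic sequence, and the ratio of all tested genes moved with length. With all tested genes in 5 groups of increasing length, the median was −0.58 in the third group, which holds JUP, −0.77 in the fourth, with CDH1, CDH2 and CDH3, and −0.91 in the fifth, with CDH13, VCL, CTNNA1, CTNNB1 and CTNND1. Within its group CTNNB1 stood above 16.2% of genes, CDH1 above 20.5% and CTNNA1 above 21.1%. CTNND1 stood above 29.0% and CDH3 above 27.9%. VCL was near the middle at 48.3%, and CDH13, JUP and CDH2 stood above 62.2, 68.3 and 68.4%. The part of length in these ratios was not tested beyond the division that follows.

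**Figure D3:**
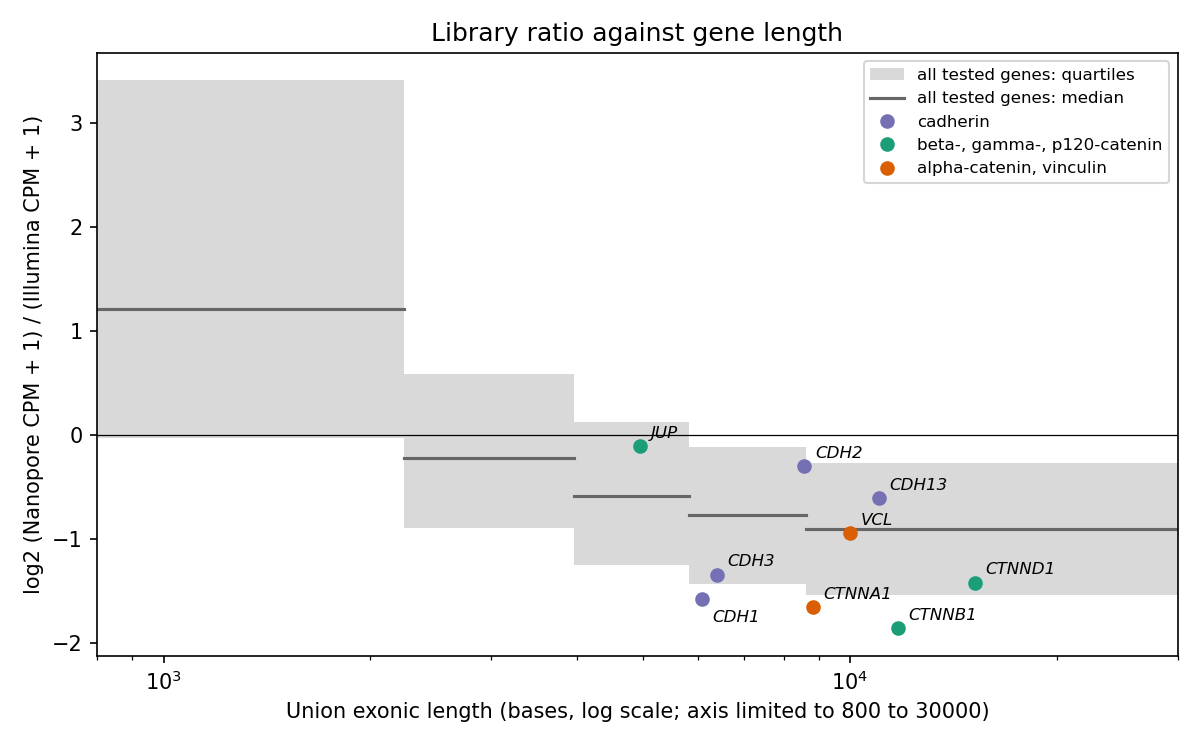
Log2 ratio of Nanopore to Illumina CPM (pseudocount 1) of the 9 tested members (points, coloured by role) against union exonic length (log axis, limited to 800 to 30000 bases), over the quartile range (grey) and median (line) of all tested genes in 5 length groups. All 9 points lie below 0, between −1.86 and −0.11, and CDH1, CTNNA1 and CTNNB1 lie below the quartile range of their group.

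Dividing Illumina counts by length changed the picture. With union exonic length the median log2 ratio of Nanopore CPM to Illumina TPM was 0.74 for the 9 genes and 0.40 for all genes tested, and 7 of 9 were above 0. In that fit CTNND1 (1.03), VCL (0.91) and CDH13 (1.30) were higher by Nanopore with exact binomial adjusted p-values of 0.00820, 0.00534 and 0.0399, which is 3 of 9 against 32.4% of all genes tested, and 0 of 9 were higher by Illumina against 12.8%. With canonical transcript length the medians were 0.65 and 0.49. CDH13, JUP and VCL then passed as higher by Nanopore, 3 of 9 against 33.2% of all genes, and CTNNA1 and CTNNB1 as higher by Illumina, 2 of 9 against 11.2%. With mean transcript length the medians were −0.21 and 0.06, and CDH3, CTNNA1 and CTNNB1 passed as higher by Illumina, 3 of 9 against 16.9%, while 0 of 9 were higher by Nanopore against 24.6%. CTNNA1 was also past 4-fold there, 1 of 9 against 3.95%. CDH1 and CDH2 passed under none of the 3 lengths.

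On the scale of reads, the Illumina CPM of CDH1 would correspond to 9.75 reads at the Nanopore total, and its TPM to 4.34 by union exonic length and 3.14 by canonical transcript length, against the 3 that were counted. For CDH3 the values were 56.4, 23.9 and 19.6 against 22 counted. For CDH2 they were 9.95, 3.14 and 3.84 against 8 counted. Reads implied by Illumina CPM fell inside the exact interval of the Nanopore reads for 4 of the 10 genes and above it for 6. Reads implied by TPM fell inside it for 5 genes by either length. They fell below it for CDH13 and VCL by both lengths, and for JUP by both lengths, although JUP lay at the edge with union exonic length (10.6 implied, lower bound 10.7). CDH2 and CTNND1 also fell below it by union exonic length, and CTNNA1 and CTNNB1 fell above it by canonical transcript length.

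**Figure D4:**
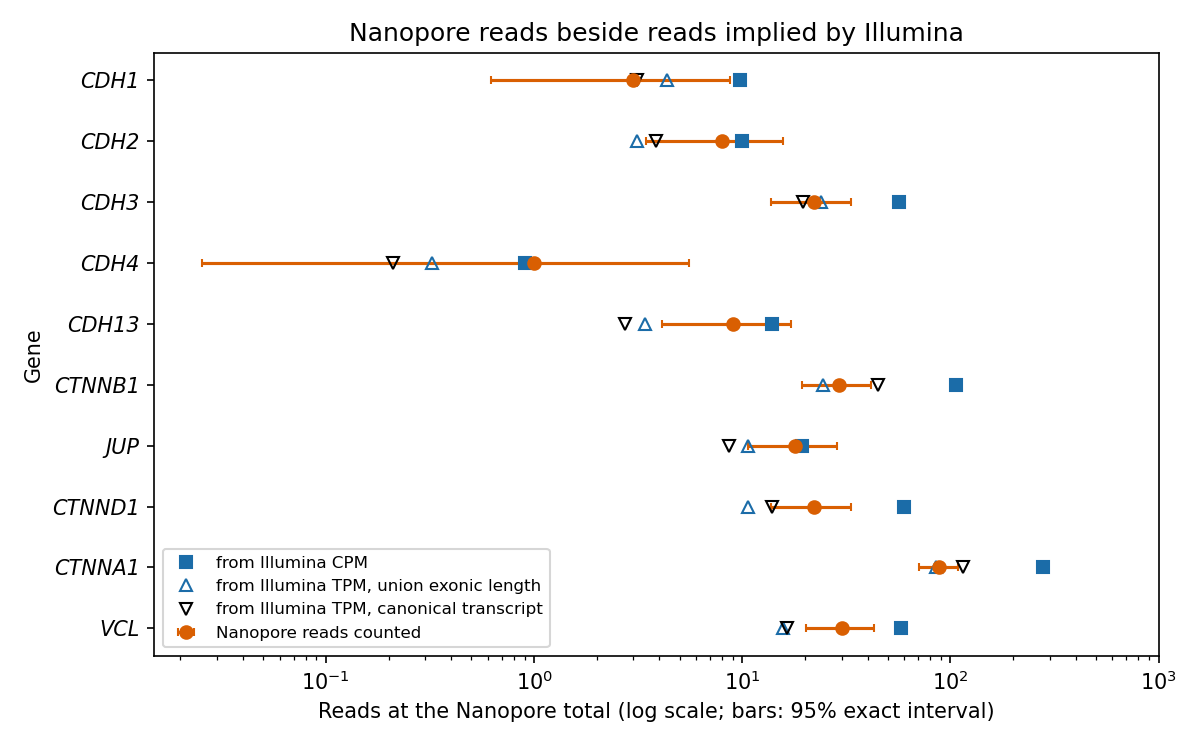
Nanopore reads counted for each gene (circles, with 95% exact intervals; log axis) beside the number that Illumina CPM (squares) or TPM by union exonic (upward triangles) or canonical transcript length (downward triangles) would give at the Nanopore total of 403235. For CDH3 the triangles stand at 23.9 and 19.6, inside the interval of the 22 reads counted, and the square at 56.4 lies above it.

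Exons of 7 of the 10 genes overlap exons of another annotated gene, and how the authors counted a read that lies over 2 genes, or whether strand was used, is not given in the sources used here. For 4 members the overlapping gene had between 54.5 and 90.9% of the member's own Nanopore count and at most 3.07% of its Illumina count. CTNND1 shares 1926 exonic bases with ENSG00000254732, a protein-coding readthrough gene on the same strand (chromosome 11, 57741779 to 57804771), which had 20 Nanopore counts, 90.9% of those of CTNND1, and 868 Illumina counts, 3.07%. CDH13 shares 2354 bases with the antisense gene CDH13-AS2 (ENSG00000260228, chromosome 16, 83789967 to 83807834), with 7 Nanopore counts, 77.8% of those of CDH13, and 20 Illumina counts, 0.302%. In both pairs the Nanopore counts of neighbour and member were close, and the Illumina counts were far apart.

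N- and P-cadherin had such neighbours too. CDH2 shares 307 bases with the antisense lncRNA ENSG00000227279 (chromosome 18, 27921551 to 27963692), which had 6 Nanopore counts, 75.0% of those of CDH2, and 33 Illumina counts, 0.698%. CDH3 shares 537 bases with the antisense lncRNA CDH3-AS1 (ENSG00000260577, chromosome 16, 68644248 to 68646168), with 12 Nanopore counts, 54.5% of those of CDH3, and 770 Illumina counts, 2.87%. The Nanopore/Illumina CPM ratios of these 4 neighbours were 166 (59.5 to 410) for CDH13-AS2, 86.5 (29.6 to 209) for ENSG00000227279, 11.0 (6.66 to 17.0) for ENSG00000254732 and 7.41 (3.81 to 13.0) for CDH3-AS1. In the same order their Illumina CPM were 0.104, 0.172, 4.53 and 4.02, all under the mean of 5 CPM asked of a tested gene. They entered the test only through their Nanopore counts, so their calls as higher by Nanopore are not read as a result. From gene counts, reads of these members and of their neighbours cannot be told apart, so the Nanopore counts of CDH2, CDH3, CDH13 and CTNND1 are uncertain on that account.

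**Figure D5:**
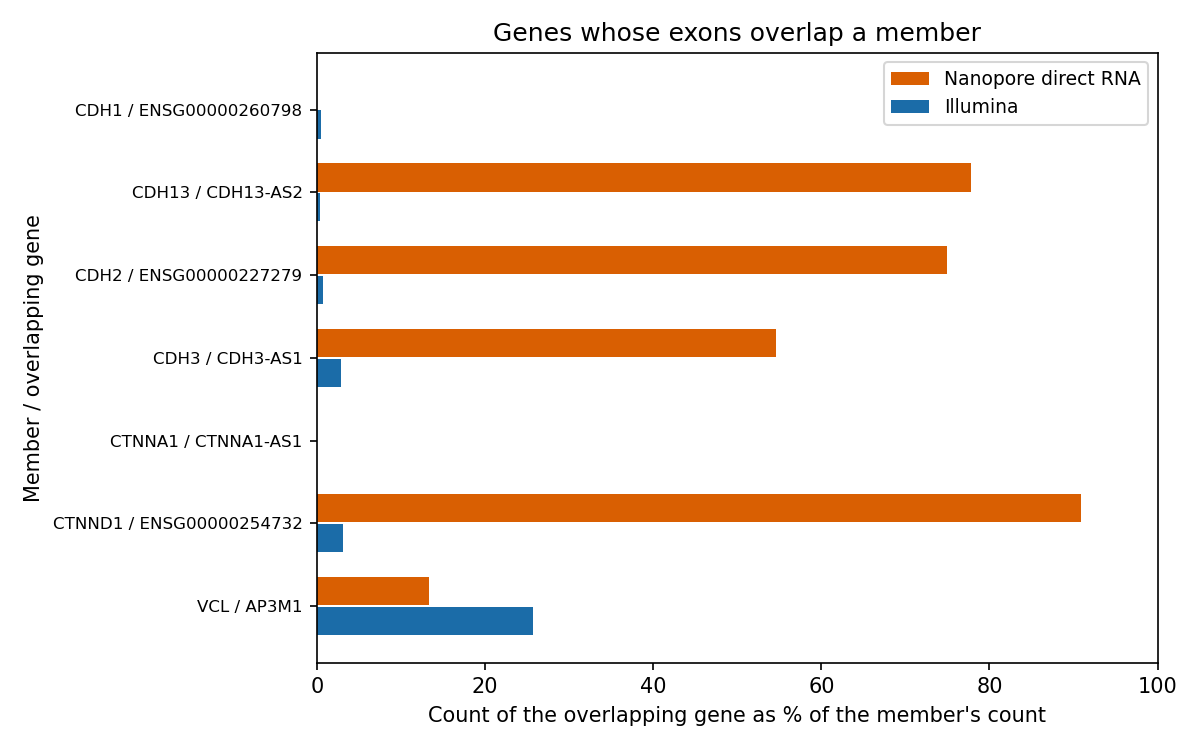
Count of each overlapping gene as a percentage of the count of the member it overlaps, in the Nanopore (orange) and Illumina (blue) libraries; each pair of bars is 1 member and 1 gene that shares exonic bases with it. The Nanopore bars reach 54.5 to 90.9% for CDH3, CDH2, CDH13 and CTNND1, against Illumina bars of 0.302 to 3.07%, while AP3M1 beside VCL has the opposite order.

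The place of the overlap along the member differed. On the canonical transcript of CDH3 (4452 bases) only the first 220 bases are shared with CDH3-AS1, at the end farthest from the poly(A) tail where a direct RNA read begins. On CDH13 (7876 bases) the 2354 shared bases begin 3264 bases from the 3′ end, and on CDH2 (4016 bases) 136 shared bases begin 1423 bases from it. On CTNND1 (6670 bases) the shared stretch begins 4426 bases from the 3′ end. Other members showed no such neighbour. VCL overlaps AP3M1 (ENSG00000185009, chromosome 10, 74120255 to 74150842, opposite strand) by 1109 bases outside its canonical transcript, and AP3M1 had 4 Nanopore and 7100 Illumina counts, 13.3 and 25.7% of those of VCL. CDH1 overlaps the antisense lncRNA ENSG00000260798 (chromosome 16, 68814330 to 68823526), which had 0 and 24 counts, and CTNNA1 overlaps CTNNA1-AS1 (ENSG00000253404, chromosome 5, 138744434 to 138753309), which had 0 and 9. CTNNB1, JUP and CDH4 share no exonic base with another annotated gene.

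The rest of the adhesion pathway was read from 6 lists of 61 genes, all present in the tables. Of the 37 whose CPM averaged 5 or more, 18 were higher by Illumina at the adjusted p and 0 higher by Nanopore, against 27.2 and 20.2% of all genes tested. Their median log2 ratio was −0.82, against −0.42 for all genes. Of the 37, 2 were also past 4-fold, both higher by Illumina. Of all genes tested 20.2% were past it in both directions together, with 12.9% higher by Nanopore. The counts of single lists below are to be read against the same 27.2%. Division by union exonic length turned the median to 0.60, with 7 of 35 tested genes higher by Nanopore, against 32.4% of all genes, and 1 higher by Illumina, against 12.8%. With mean transcript length the median was −0.15, with 4 genes higher by Nanopore and 6 by Illumina, against 24.6 and 16.9% of all, so the direction of the pathway, as that of the members, depended on the treatment of length.

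Among 17 other cadherins, only CDH24 had a Nanopore count (5), and 8 had at least 1 Illumina count. CDH24 had 980 Illumina counts, 5.11 CPM, and CDH11, the cadherin of osteoblasts and many mesenchymal cells, had 618, or 3.22 CPM, with no Nanopore read. That level lies under the 7.44 CPM of the 3 counts taken as the Nanopore detection floor. Of 8 relatives and partners of the catenins, 4 were tested and 2 were higher by Illumina, PKP4 (11 and 12607 counts) and CTNNBL1 (9 and 11228). CTNNAL1, the alpha-catenin-like gene, was the most frequent of them with 24 Nanopore and 15002 Illumina counts. The neural and heart alpha-catenins CTNNA2 and CTNNA3 had 0 Nanopore counts, and 8 and 0 Illumina counts.

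Nectins and afadin, the second adhesion system of adherens junctions, had fewer Nanopore reads than any member catenin, 9 at most: of 6 genes 5 were tested and 3 were higher by Illumina. NECTIN1 and PVR had 9 Nanopore counts each and 12875 and 12580 Illumina counts, and AFDN had 7 and 9403. Of the 9 actin linkers, all tested, 4 were higher by Illumina, with a median log2 ratio of −0.88. ZYX (zyxin) was the most frequent, with 70 and 33334 counts and a log2 ratio of −0.0021, ahead of PDLIM1 with 38 and 17813 counts and 0.02.

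Of 12 genes for the turnover of beta-catenin and its transcription partners, 9 were tested and 3 were higher by Illumina. CSNK1A1, the kinase that primes beta-catenin, had 85 Nanopore and 51955 Illumina counts, and BCL9L, a coactivator, had 16 and 12299. APC, the scaffold of the destruction complex, had 2 and 4913 counts, a CPM of 4.96 against 25.6. It passed 4-fold, at a log2 ratio of −2.16 and an exact binomial adjusted p of 0.0112. Its Nanopore count lies under the floor of 3, and its Nanopore CPM under the mean of 5 asked of a tested gene. APC entered the test only through its Illumina count, so its call is not read as a result. APC has 13623 bases of union exonic sequence, and its Illumina TPM by that length was 5.09. The Wnt target AXIN2 had 0 Nanopore and 144 Illumina counts. Of 9 genes for cadherin endocytosis, cleavage and traffic, all tested, 6 were higher by Illumina. ADAM15 had 58 and 46088 counts, and RAB11A had 46 and 25681.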

How the data were processed

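Gene counts of 1 Nanopore direct RNA and 1 Illumina library were analysed, grouped by their titles. The authors deposited whole-number counts per Ensembl gene without normalization. The submitters' processing notes name minimap2 2.11-r797, HISAT2 2.1.0, featureCounts and hg38. Their roles and options, the annotation, and whether Illumina reads or fragments were counted are not given in the sources used here. The 10 genes and all lists were chosen with earlier results of these data known.

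Names, positions and lengths came from GENCODE 44, which held 58207 of the 58735 identifiers. CPM used library totals and a pseudocount of 1 for ratios. Without replicates no quasi-likelihood model could be fitted, so genes averaging 5 CPM or more had an exact conditional binomial test (scipy 1.17.1), Benjamini-Hochberg adjusted over all tested genes. The test was checked on simulated counts, drawn for both libraries at the Illumina proportions with counting error only. Of 100 genes raised 8-fold 100 were called, and of 100 lowered 8-fold 83, with 1 unchanged gene. The simulated counts held no effect of length or platform, so they cannot show how the test behaves with one. Intervals are 95% Clopper-Pearson intervals, except those of the odds ratios, which are 95% conditional exact intervals. Like the floor of 3 counts, all of them cover counting error only, since amplified reads are not independent molecules. All 10 genes were named, with every counted gene that overlaps their exons and, from each pathway list, the 2 with most Nanopore counts and any called. Further list genes were named after their values were seen. Alternatives covered scaling (TMM from edgeR 4.0.16), length, pseudocount, filters, overlap and thinning. The values of 1 gene of the pathway lists are not reported here.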

Additional observations from a re-analysis of the deposited data

How the results depend on the processing

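No alternative other than the lengths gave a member past 4-fold, and the order of members kept 37 to 42 of 45 pairs alike. Across alternatives other than division by length, the 92 ratios of single members kept their direction and their side of the threshold with 2 exceptions, JUP at 0.0167 under median-ratio scaling and CDH4 at 0 with Illumina thinned to the Nanopore total. Under the 3 lengths 17 of 30 ratios reversed. By union exonic, canonical and mean transcript length the log2 ratio became 1.25, 0.99 and 0.82 for CDH2, 1.03, 0.65 and 0.62 for CTNND1, 0.74, 1.03 and 0.10 for JUP, and 0.91, 0.86 and 0.60 for VCL. It became 1.30 and 1.58 for CDH13 by union and canonical length, 0.16 for CDH3 by canonical length, and 0.046 for CTNNA1 and 0.24 for CTNNB1 by union length. CTNNA1 was the 1 member called at 4-fold by mean transcript length (−2.01). Members past the adjusted p numbered 5, and 3 by union or mean transcript length and 1 of the 2 tested members without exon overlap.

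Over all genes, 2505 were called, against 1514 with a pseudocount of 5 CPM, 1229 when genes had to average 20 CPM and 726 among genes without exon overlap, where 4900 were tested. At the adjusted p, 2506 were higher by Nanopore and 3382 by Illumina, and 3880 and 1535 after division by union exonic length. Scaling raised log2 ratios by 0.088 (TMM) or 0.13 (median ratio). The Illumina shares of CDH1, CDH2 and CDH3 were 12.8, 13.1 and 74.1% in counts, 11.8, 14.4 and 73.8% by canonical and 11.2, 7.87 and 80.9% by mean transcript length. At a minimum of 10 counts Nanopore detected 6 of the 10 members. CTNND1 with its readthrough gene had 42 Nanopore counts and a log2 ratio of −0.54 (exact binomial adjusted p 0.0267). The same reads may be counted under both genes in that sum.

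No paired analysis was possible because each platform has 1 library, which also leaves no replicate to omit. At 1 to 30 reads, Nanopore depth limits every ratio of a member except CTNNA1.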
